A study of Homo sapiens with 4 samples.

Results

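The circadian clock genes examined here were 10 genes, represented by 14 probes of the array: the repressor genes BHLHE40 and BHLHE41, the period genes PER1, PER2 and PER3, the cryptochrome genes CRY1 and CRY2, the nuclear receptor genes NR1D1 and NR1D2, and the output gene DBP. They were taken by symbol from the platform's probe table, which named 19090 genes in all, and every probe carrying one of these symbols was kept. Of the 10 genes, 7 had 1 probe and 3 had more. RNA came from QGP-1, an established human pancreatic neuroendocrine tumour line grown in RPMI-1640 with 10% serum. In both groups the cells spent 24 h in RPMI-1640 with 0.1% serum, with medium conditioned by pancreatic stellate cells (PSC medium) or without it (mock). Pancreatic stellate cells are mesenchymal cells of the pancreas that make matrix. Each group had 2 one-colour arrays. The labels do not say whether these came from separate cultures, so p-values measure only the spread between these arrays, which may be technical. The sources used here do not say how the mock medium was prepared. All arrays were taken at 1 time, so levels are given and no rhythm was measured.

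The circadian clock is a transcriptional feedback loop. The CLOCK and BMAL1 proteins bind E-boxes in DNA and switch on the PER and CRY genes, whose proteins return to the nucleus and repress CLOCK and BMAL1. BHLHE40 and BHLHE41 bind the same E-boxes as repressors, NR1D1 and NR1D2 (REV-ERB alpha and beta) repress BMAL1 from ROR elements, and DBP activates genes through D-boxes. PER1, PER2 and BHLHE40 are also known as genes that signals from outside the cell can induce quickly, BHLHE40 among others by hypoxia.

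Since E-boxes are the element through which the loop acts, the promoter windows of the members are shown first. RefSeq (GRCh38.p14) gave a window from 250 bases before to 50 bases after the start for all 10 genes, 13 windows in total because some genes have more than 1 start. Both strands were searched for the E-box CACGTG, the related E'-box CACGTT, the D-box TTATGTAA, the cAMP response element TGACGTCA and TAGGTCA, the core of the ROR element. An E-box was found in 4 of the 13 windows, against 7.26% of 35116 windows of the same length, and an E'-box also in 4, against 5.34%. Of the 10 genes, 8 had either box: the E-box in BHLHE40, BHLHE41, PER1 and NR1D2, the E'-box in PER2, CRY1, CRY2 and NR1D1. The share of all windows with either box was not counted, and a link of the boxes to the differences between media was not tested. A D-box was found in the windows of PER3 and NR1D2 (0.89% of all windows), TAGGTCA in CRY2 (1.85%), and the cAMP response element in 0 of 13 (1.85%). A match describes letters only and is not a bound site. The stretches below cover the E-box and E'-box matches of the members with the largest differences between media and of BHLHE41, the paralog of BHLHE40, read along the gene's own strand. Capitals mark the E-box or, in PER2 and NR1D1, the E'-box, which in NR1D1 lies on the opposite strand.
BHLHE40 (chr3:4979187-4979216, plus strand): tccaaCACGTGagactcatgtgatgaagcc
BHLHE41 (chr12:26125068-26125097, minus strand): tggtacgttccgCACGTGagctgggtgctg
PER1 (chr17:8152560-8152589, minus strand): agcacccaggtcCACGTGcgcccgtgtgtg
PER2 (chr2:238288790-238288819, minus strand): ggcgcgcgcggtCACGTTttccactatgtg
NR1D1 (chr17:40100740-40100769, minus strand): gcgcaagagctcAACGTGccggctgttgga
NR1D2 (chr3:23945954-23945983, plus strand): ggcgggcggggaCACGTGaggccgctcggc
NR1D2, further downstream (chr3:23946004-23946033, plus strand): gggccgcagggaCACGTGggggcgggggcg

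**Figure D1:**
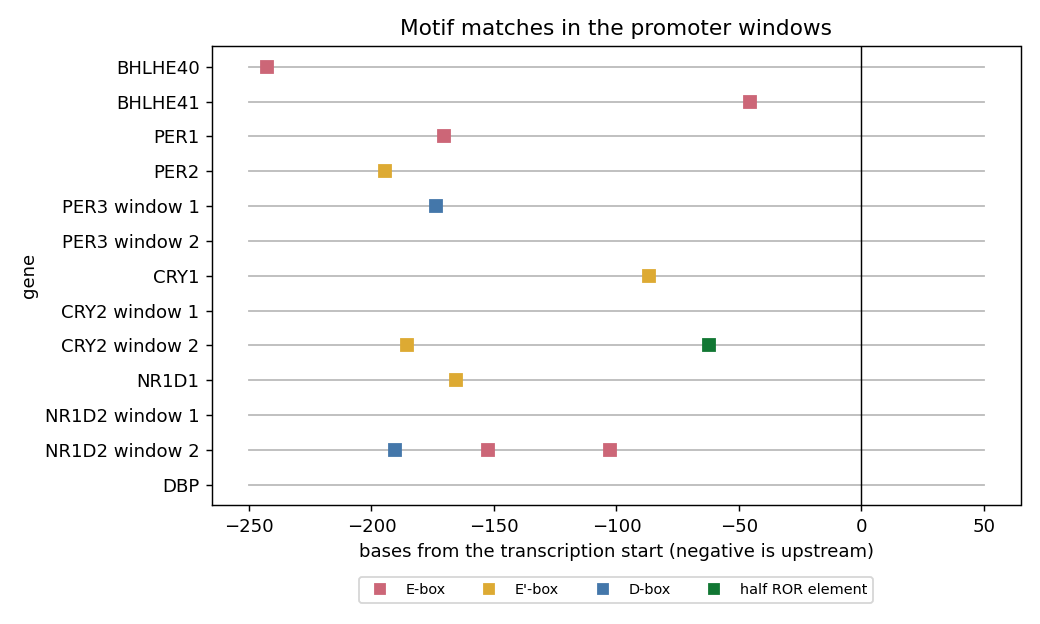
Positions of the motif matches (squares, by motif) in each promoter window, from 250 bases before to 50 bases after the transcription start (x axis, bases). The window of BHLHE40 has its E-box at -245 and that of BHLHE41 at -48, and the second window of NR1D2 is the one with 2 E-boxes; the window of DBP shows 0 matches.

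The arrays held 28264 probes with median intensities of 662 and 829 in mock and 800 and 822 in PSC medium, and summed intensities from 135782105 to 173359996. The number of arrays, 2 per group, limits the precision. Of 10 neuroendocrine marker genes 8 were measured, 7 of them above the median probe level and 6 above the 90th percentile, with the chromogranin gene CHGA at 94849 and 109107 in mock and 111828 and 85329 in PSC medium. Of 12 stellate cell and fibroblast markers, all measured, 1 lay above the median level (COL1A1, at intensities of 2986 and 2988 in mock and 3635 and 3953 in PSC medium) and 0 were called. Their summed normalized intensity was 5688 and 4577 on the mock arrays and 5404 and 5934 on the PSC medium arrays, so the groups overlapped. In the deposited intensities it was 5007 and 4969 in mock and 5367 and 6112 in PSC medium, higher on both PSC medium arrays. COL1A1, itself higher on both PSC medium arrays, made up the largest part of these deposited sums, and no sum without it was taken. On the normalized log2 scale 6 of the 12 differences were positive and 6 negative, from -0.25 for PDGFRA to 0.49 for the vimentin gene VIM. The groups did not overlap for 2 markers higher with PSC medium, COL1A1 (0.29) and COL1A2 (0.32), and 2 lower, LUM (-0.24) and PDGFRA. In the deposited intensities the groups of COL1A2 did overlap, at 69 and 85 in mock and 66 and 102 in PSC medium. COL1A2, VIM and LUM were dim, at percentiles of level of 12.38, 9.33 and 16.11. The lowest adjusted p of the list was 0.369 in limma. The part of these markers in the results below was not tested.

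With PSC medium 2 members rose past the threshold: NR1D1 by 3.56-fold and BHLHE40 by 2.74-fold. PER1 and PER2 had differences of 2.15-fold and 2.00-fold in the same direction that did not pass after adjustment. BHLHE41, PER3, CRY1 and CRY2 stayed within 1.28-fold of the mock level on all their probes. In counts, 2 of 14 probes were called higher and 0 lower at an adjusted p under 0.05 (limma across all probes, Benjamini-Hochberg), where 0.386% of all probes were called higher and 0.248% lower. The median difference (PSC medium minus mock, log2) was 0.43 over the 14 probes and -0.006 over all 28264. A positive difference was found for 12 of 14 probes, against 49.3% of all probes. After normalization the groups did not overlap for 11 of 14 probes, all higher with PSC medium. Over all probes this held for 25.4% in the higher and 28.2% in the lower direction. In the deposited intensities the groups of CRY2 probe 1 and NR1D2 probe 2, both among the 11, did overlap. These counts include several probes of the same gene. With only the brightest probe of each gene, 8 of 10 differences were positive, with a median of 0.32. The normalized groups then did not overlap for 7 of 10 genes, all higher with PSC medium, and NR1D2, read by its probe 2, is among these. Without normalization 13 of 14 differences were positive (52.4% of all probes), and with median centring 12 of 14 (39.2%). Under both of these scalings, however, 0 of the 14 probes were called.

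**Figure D2:**
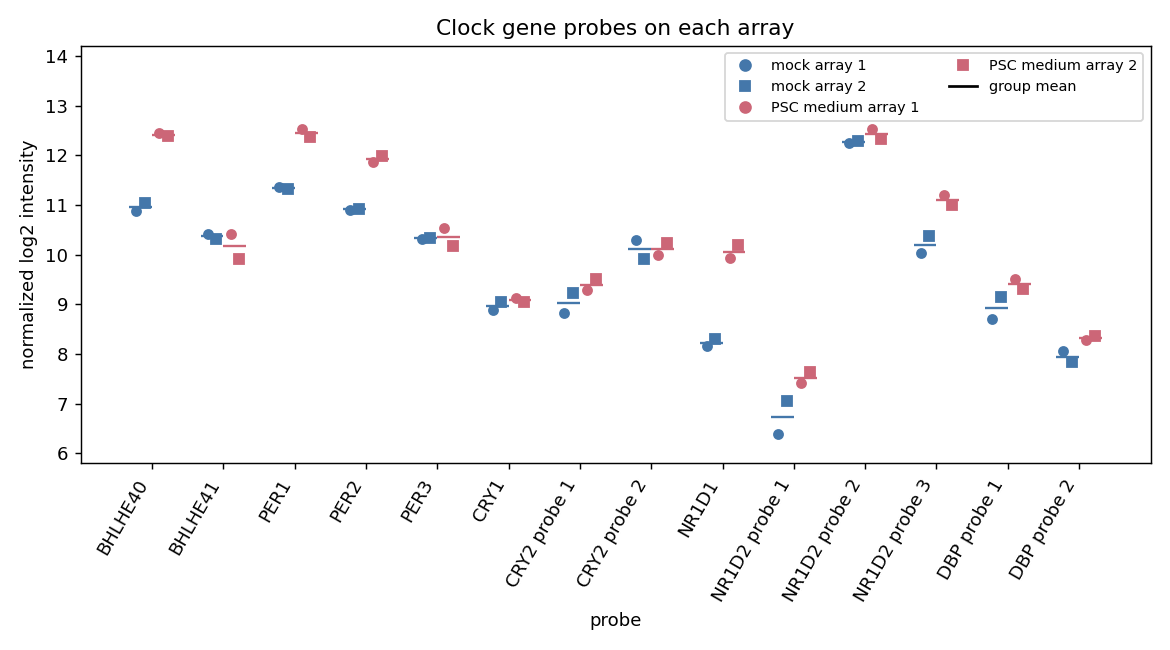
Normalized log2 intensity (y axis) of the 14 clock gene probes on each of the 4 arrays, with blue points for mock, red points for PSC medium, and lines for group means (n = 2). The red points of BHLHE40, PER1, PER2 and NR1D1 lie about 1 to 1.83 log2 units above the blue ones, while those of BHLHE41, PER3 and CRY2 probe 2 overlap them.

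Among the E-box repressors, BHLHE40 had deposited intensities of 1601 and 2297 in mock and 5730 and 5367 in PSC medium. Both PSC medium arrays were above both mock arrays, by more than the arrays of a group differed from each other. On the normalized log2 scale the level went from 10.96 ± 0.12 to 12.42 ± 0.04 (SD, n = 2), a difference of 1.46 ± 0.16 (SE; limma adjusted p = 0.0458). BHLHE41, the paralog, had intensities of 1171 and 1378 in mock and 1409 and 1016 in PSC medium. Its groups overlapped, and PSC medium array 2 was the lowest of the 4 arrays. The normalized difference was -0.20 ± 0.21 (limma adjusted p = 0.621), with a 95% confidence interval from -0.74 to 0.33, while that of BHLHE40 ran from 1.06 to 1.85. Whether the changes of the paralogs differ was not tested; for a single value, an exact permutation test of 2 against 2 arrays cannot give a two-sided p below 0.333.

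The PER proteins form, together with the cryptochromes, the negative limb of the loop. PER1 had intensities of 2249 and 2817 in mock and 6090 and 5316 in PSC medium. The groups were clearly apart, and the normalized level was 11.34 ± 0.03 in mock and 12.45 ± 0.10 in PSC medium (SD, n = 2). The difference of 1.11 ± 0.15 (SE) had an unadjusted p of 0.000619 and an adjusted p of 0.0604 in limma. PER2, the period gene with the E'-box shown above, had intensities of 1635 and 2103 in mock and 3832 and 4017 in PSC medium. Here too the groups did not overlap, with normalized levels of 10.92 ± 0.02 and 11.92 ± 0.09, a difference of 1.00 ± 0.15 and a limma adjusted p of 0.0658. Neither period gene passed the threshold in this fit, while both passed it in 5 of 14 refits with other settings, 1 of them the fit with 1 probe per gene (limma adjusted p = 0.0379 for PER1 and 0.0422 for PER2). PER3, a period gene that the core loop can do without in mice, had intensities of 1093 and 1389 in mock and 1536 and 1204 in PSC medium. Its groups overlapped, and the normalized difference was 0.03 ± 0.18 (limma adjusted p = 0.942; 95% confidence interval from -0.43 to 0.49). The mock level of PER3, 10.33 ± 0.01, lay above the median probe level of 9.60, so its value did not come from the dim end of the array.

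The cryptochromes are the partners of the PER proteins and the stronger repressors of CLOCK and BMAL1. CRY1 had intensities of 412 and 555 in mock and 568 and 569 in PSC medium. After normalization its groups did not overlap, but mock array 2 (9.0458) and PSC medium array 2 (9.0464) nearly coincided, and the difference was 0.12 ± 0.15 (limma adjusted p = 0.705). CRY2 was measured by 2 probes that disagreed in size. Probe 1 had 394 and 640 in mock and 635 and 767 in PSC medium, with a difference of 0.36 ± 0.20 (limma adjusted p = 0.368). Probe 2, the brighter one, had 1071 and 1038 in mock and 1048 and 1241 in PSC medium, with overlapping groups and a difference of -0.0012 ± 0.20 (limma adjusted p = 0.999). For CRY1 the 95% confidence interval ended at 0.51 and for the CRY2 probes at 0.88 and 0.50, so the data did not show a change of either gene and an increase within those bounds could not be told from none.

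**Figure D3:**
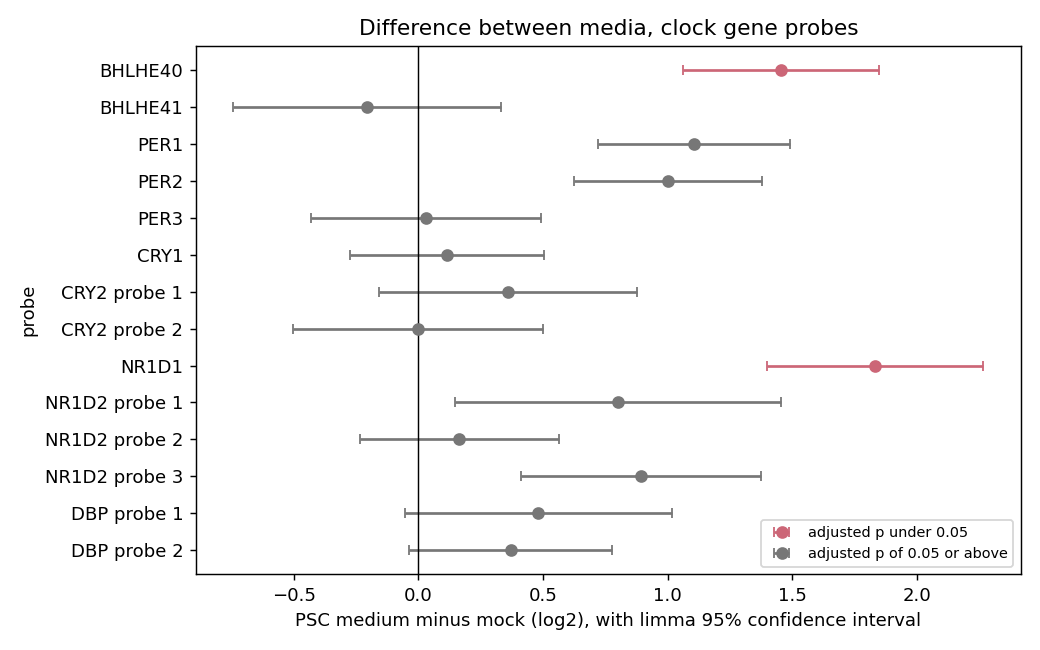
Difference between PSC medium and mock (x axis, log2) for each clock gene probe, with limma's 95% confidence interval as bars and the probes past the threshold in red. NR1D1 at 1.83 and BHLHE40 at 1.46 are the red points, and the intervals of PER1, PER2 and of probes 1 and 3 of NR1D2 also lie above 0.

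Of the REV-ERB genes, which encode heme-binding receptors that repress BMAL1, NR1D1 had the largest difference among the 14 probes. Its intensities were 255 and 328 in mock and 1010 and 1222 in PSC medium. Every PSC medium value exceeded every mock value, and the normalized level went from 8.23 ± 0.09 to 10.06 ± 0.19 (SD, n = 2). The difference was 1.83 ± 0.17 (SE; limma adjusted p = 0.0359; 95% confidence interval from 1.40 to 2.27). In mock its level was thus under the median probe level of 9.60 and in PSC medium above it. The 3′ end of NR1D1 overlaps THRA, a thyroid hormone receptor gene, in the RefSeq annotation; the THRA probe, looked up after the values were seen, had a difference of 0.24 ± 0.16 (limma adjusted p = 0.444).

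NR1D2, the paralog, was measured by 3 probes. Probe 3 had intensities of 895 and 1427 in mock and 2444 and 2094 in PSC medium, with a difference of 0.89 ± 0.19 (limma adjusted p = 0.0937). Probe 1, a dim one, had 87 and 140 in mock and 160 and 220 in PSC medium, with a difference of 0.80 ± 0.26 (limma adjusted p = 0.169). Both were higher on each PSC medium array than on each mock array and were of similar size, yet neither passed. Probe 2, the brightest, had 4157 and 5571 in mock and 6139 and 5139 in PSC medium. After normalization its groups were just apart, with a difference of 0.16 ± 0.16 (limma adjusted p = 0.592). Its 95% confidence interval, from -0.24 to 0.57, ended below the estimates of the other NR1D2 probes. It overlapped their intervals, from 0.41 to 1.37 for probe 3 and from 0.145 to 1.456 for probe 1. Whether the probes differ was not tested. The sources used here do not say which transcripts each probe reads, and the disagreement between the probes was not resolved.

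DBP, a PAR bZIP factor that is a direct E-box target and a common readout of clock output, was measured by 2 probes. Probe 1 had intensities of 363 and 601 in mock and 747 and 674 in PSC medium, and probe 2 had 236 and 235 in mock and 306 and 360 in PSC medium. On both probes the PSC medium arrays were above the mock arrays. The normalized differences were 0.48 ± 0.21 and 0.37 ± 0.16, and neither passed (limma adjusted p = 0.264 and 0.262), both intervals including 0 (from -0.05 to 1.02 and from -0.04 to 0.78).

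The rest of the clock was read from a list of 25 other clock genes, 23 of them measured with 35 probes. In the same fit 0 of the 35 probes were called; at an unadjusted p under 0.05 there were 12 higher and 1 lower, where 10% of all probes were higher and 11.8% lower at that p. Their median difference was 0.25, with 29 of 35 positive (26 of 35 with median centring). Among the activators, CLOCK, the partner of BMAL1, had the smallest p and was the 1 probe in the lower direction. Its intensities were 3381 and 4491 in mock and 2240 and 2161 in PSC medium, both PSC medium arrays being below both mock arrays (difference -0.91 ± 0.15, limma adjusted p = 0.0692). BMAL1, named after its values were seen, had 721 and 831 in mock and 1321 and 1298 in PSC medium (0.63 ± 0.15, limma adjusted p = 0.108). The partners of the activating dimer thus had differences of opposite sign, neither past the threshold.

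Receptors and kinases of the loop mostly had positive differences. RORA, which activates BMAL1 from the elements that NR1D1 and NR1D2 occupy, had differences of 0.76 ± 0.16, 0.75 ± 0.21 and 0.20 ± 0.16 on its 3 probes (lowest limma adjusted p = 0.0932). NFIL3, the repressor that competes with DBP for D-boxes, had intensities of 277 and 396 in mock and 615 and 588 in PSC medium (0.72 ± 0.17, limma adjusted p = 0.111). CSNK1D, a kinase that marks PER proteins for degradation, had a difference of 0.95 ± 0.16 on one probe (limma adjusted p = 0.0733) and 0.14 ± 0.18 on the other. TIPIN, the partner of TIMELESS at replication forks, had 0.92 ± 0.20 and 0.50 ± 0.18 (limma adjusted p = 0.0966 and 0.199). Positive differences were found for 4 of 4 ROR receptor probes, 3 of them of RORA, and for 4 of 4 probes of DBP's relatives and antagonist. The same held for 10 of 12 kinase and ubiquitin ligase probes. The medians of these roles were 0.50, 0.58 and 0.12. Of the activator probes 2 of 4 were positive, and of the other clock-associated probes 9 of 11, where 49.3% of all probes were positive.

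**Figure D4:**
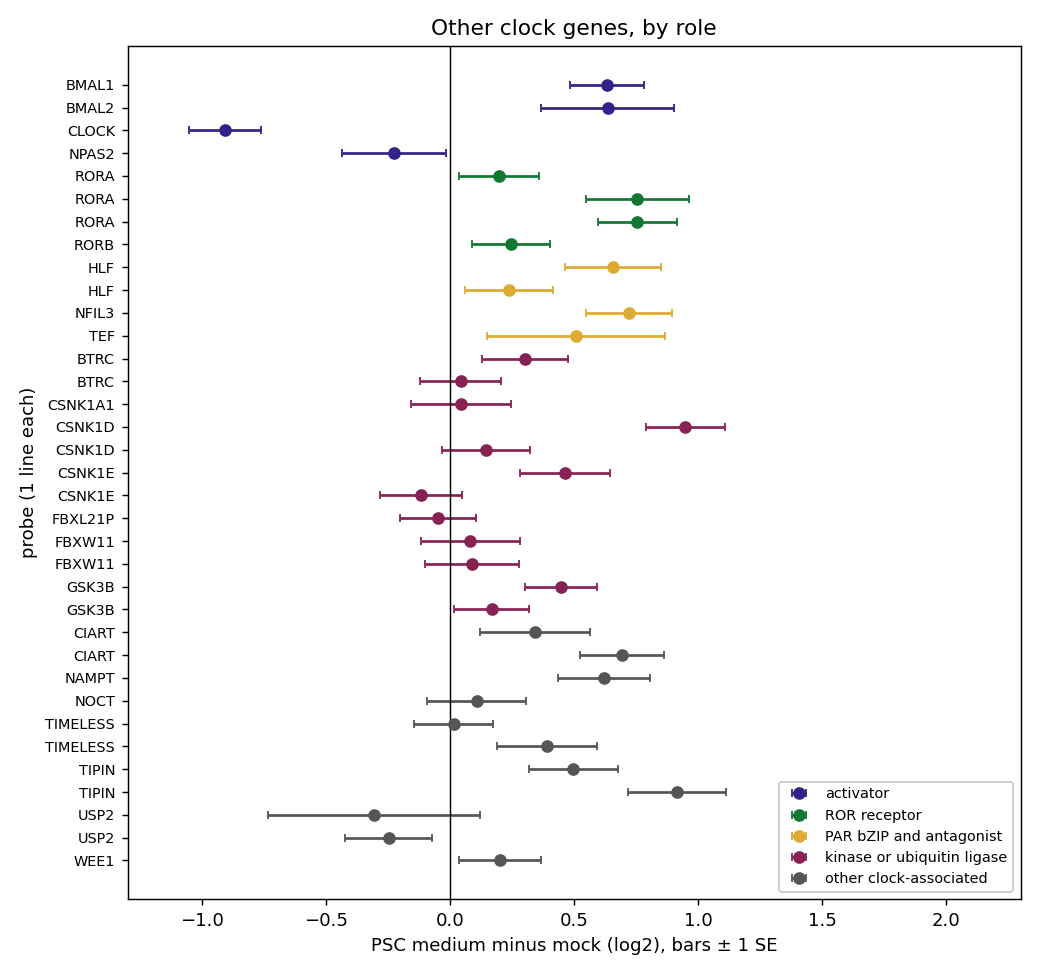
Difference between PSC medium and mock (x axis, log2, bars ± 1 SE) for the 35 probes of other clock genes, 1 line per probe and 1 colour per role. CLOCK at -0.91 is the lowest point, most points lie between 0 and 0.95, and 0 of the probes passed the threshold.

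The genes closest in pattern to the called members were found by the distance between their 4 normalized array values, each gene centred on its mean. Nearest to NR1D1 were BEST1, a chloride channel gene (distance 0.052, difference 1.78 ± 0.17), the pseudogene RPL23AP82 (0.082, 1.76 ± 0.17) and the imprinted non-coding RNA gene H19 (0.089, 1.79 ± 0.16). Nearest to BHLHE40 were ABLIM3, an actin-binding protein gene (0.123, 1.37 ± 0.17), the pseudogene BMS1P20 (0.14, 1.36 ± 0.15) and PLA2G4A, a cytosolic phospholipase A2 gene (0.151, 1.55 ± 0.17). None of these 6 is in either clock list. With 4 arrays in 2 groups, this distance mostly reflects the size of the difference between media.

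The size of the leading differences varied little where the processing could move it, while their calls varied. Refits that changed only the probes kept, the unit of the fit, the variance model or the block reused the same normalized values. For these genes, with 1 probe each, such refits return the same difference by construction. Only the scaling, the added constant and leaving out 1 array could move it. Over 14 refits the difference of NR1D1 ranged from 1.68 to 1.94, that of BHLHE40 from 1.37 to 1.53, that of PER1 from 1.04 to 1.19 and that of PER2 from 0.95 to 1.08. NR1D1 and BHLHE40 were each called in 6 of the 14 refits, and neither was called without normalization (limma adjusted p = 0.0624 and 0.142), with median centring (0.0575 and 0.0856), without moderation of the variance (0.291 and 0.284), with the replicate number as a block (0.093 and 0.0988) or when any 1 array was left out (from 0.228 to 0.364). The calls of NR1D1 include that of the refit without dim probes. That refit kept a probe if its mean level in either group exceeded the median probe level of 9.60. NR1D1 exceeded it only in PSC medium (8.23 in mock, 10.06 in PSC medium), so its call there depended on the group where it was high. Probe 3 of NR1D2 ranged from 0.73 to 1.06 over 12 refits and was called in 4.

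**Figure D5:**
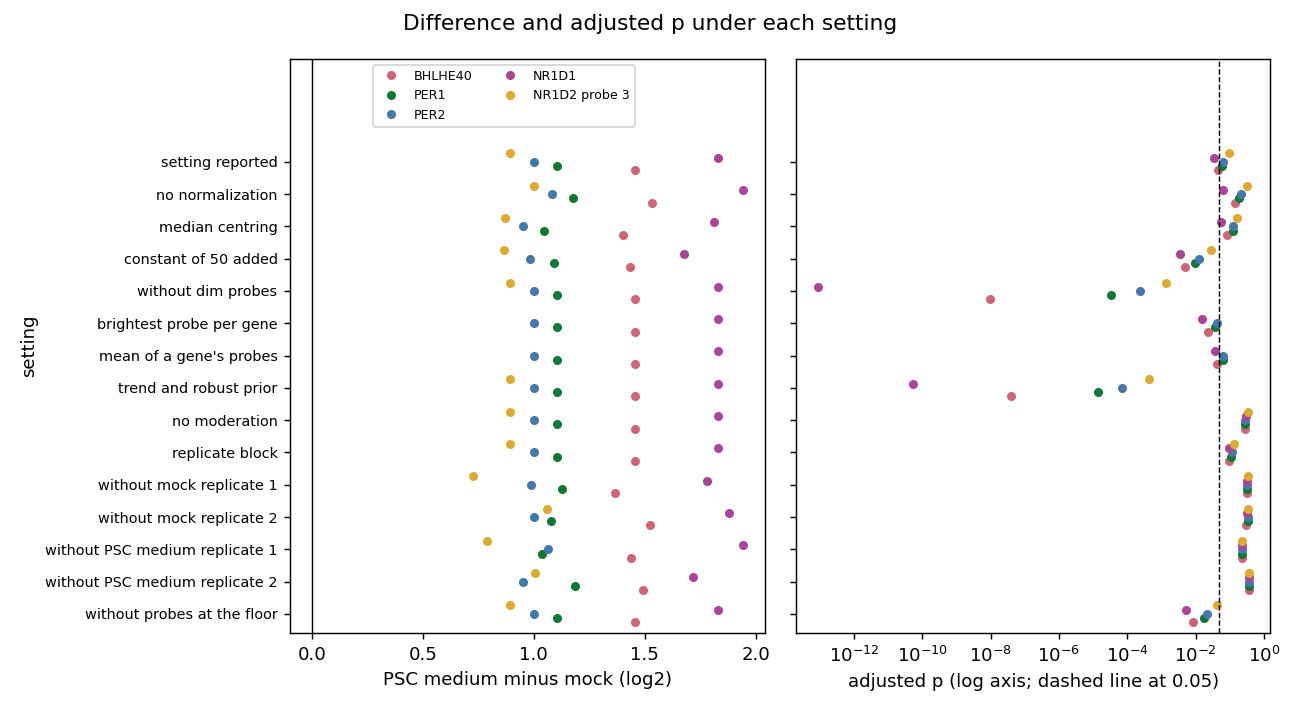
Left, difference between PSC medium and mock (log2) of 5 probes under the setting reported and each other setting; right, the limma adjusted p on a log axis with a dashed line at 0.05. Each probe's differences form a narrow vertical band on the left, whereas on the right the points fall on both sides of the line. Settings that reuse the same normalized values give the same difference by construction. NR1D2 probe 3 is not shown where 1 value stands for a gene.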

How the data were processed

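Per the labels' protocols, total RNA was amplified with an amino allyl kit and labelled with Cy5 for one-colour arrays. The authors deposited 1 linear intensity per probe and array, in whole numbers, some below 0; how they scanned or scaled the arrays is not given in the sources used here. Array medians differed by 0.325 (log2), above the limit of 0.2, so intensities were quantile normalized, floored at 1 and log2 transformed. The difference between media was fitted on all 28264 probes with limma (version 3.58.1, under R 4.3.3; lmFit, then eBayes; two-sided; 2 residual and 3.25 prior degrees of freedom), with Benjamini-Hochberg adjustment over all of them. All 25893 named probes matched RefSeq (GRCh38.p14) by Entrez ID, with 0 symbols changed, 0 with several genes and 2371 with none. Members and lists were chosen with earlier results of these data known. All member probes are named; of other clock genes, each role's smallest p, and for each called member the 3 nearest genes. The fit was tested on simulated data. Figures used matplotlib 3.10.9.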

Additional observations from a re-analysis of the deposited data

How the results depend on the processing

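Alternatives covered scaling, the floor, dim probes, the unit of the fit, the variance model, the threshold, the replicate block and each array left out; leaving out the probes at the floor was chosen after seeing the data. With the reported setting 109 probes were called higher and 70 lower, 2 and 0 of them clock gene probes; 0 clock gene probes were called lower under any of these alternatives. Called higher, lower and higher among clock gene probes were 27, 145 and 0 without normalization, 17, 88 and 0 with median centring, 1022, 1107 and 5 with 50 added, 1221, 1233 and 5 without dim probes, 223, 186 and 4 with the brightest probe per gene, 60, 33 and 2 with the mean of a gene's probes, 2049, 2291 and 6 with a trend and robust prior, 4, 0 and 0 with no moderation, 778, 847 and 5 at a threshold of 0.1, and 727, 719 and 5 without probes at the floor. Leaving out any 1 array gave 0 to 0 calls for all probes and clock gene probes in each direction; this leaves 1 residual degree of freedom. Of all calls 60.9% were higher, but 15.7% if arrays were not normalized and 16.2% if they were centred on their medians. That centring put the median difference of all probes at -0.105, with the median of the clock gene probes 0.524 above it. The fit without dim probes kept probes above the median level in either group. NR1D1 entered that fit only through its level in PSC medium, so its call there is not independent support.

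Same-numbered arrays deviated from their group means with a correlation of 0.0616, so the numbers were not taken as pairs; with the replicate block 2 probes were called higher, 0 lower and 0 among clock gene probes. Signs that turned, none of them of called probes, were those of CRY2 probe 2, PER3 and BHLHE41. CRY2 probe 2 was at 0.11 without normalization. Over the omissions of 1 array it ranged from -0.1849 to 0.1824, turning without mock array 1 and without PSC medium array 1. The mean of both CRY2 probes was also positive, at 0.18, but is not a value of probe 2 alone. PER3 ranged from -0.1474 without PSC medium array 1 to 0.2142. BHLHE41 ranged from -0.4506 to 0.0414, the latter without PSC medium array 2. Among values of clock gene probes under other settings, 146 kept direction and side of the threshold, 15 passed it newly, 16 lost it and 6 turned sign. Refits that changed only the probes kept, the variance model or the block could not turn a sign. The 6 turned signs include the mean of both CRY2 probes, which was set against probe 2. The causes of these shifts were not tested.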
